A study of Microtus ochrogaster with 51 samples.

Results

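ENSMOCG00000019682 and ENSMOCG00000003694 are 2 of the 23038 gene IDs measured in nucleus accumbens tissue from prairie voles (Microtus ochrogaster). They were chosen from earlier results of these same data, because both had higher normalized counts in separated animals than in animals sampled after 2 weeks of pairing. That contrast is therefore given below as a description, without a test for these genes. None of the IDs could be paired with a gene name, so what the genes encode is not known here, and the labelled tissue could not be set against its marker genes.

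Prairie voles form lasting bonds with a mate, and the nucleus accumbens, a region of the ventral striatum, takes part in reward and in the forming and keeping of such bonds. Losing a bonded partner is studied in this species as a model of social loss. Because whole dissected tissue was sequenced, a change in the cells of a type and a change in RNA per cell cannot be told apart in any value below.

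Each library held polyadenylated RNA from 1 animal that had been housed with an opposite-sex mate. Animals were sampled after 2 weeks of pairing (10 females and 10 males), after 2 weeks of pairing followed by 4 weeks of separation (12 females and 13 males), or after 6 weeks of pairing (3 females and 3 males). Normalized counts (read counts divided by 1 size factor per library) covered 42 of these libraries, namely 9 females and 9 males after 2 weeks and 12 females and 12 separated males, which made 21 complete pairs. TPM values, in which reads are divided by gene length and each library is brought to a common sum, covered all 51, and the 6-week libraries had TPM only. Cohorts 1 and 2 held 2-week pairs alone and cohorts 3 and 4 held separated and 6-week pairs, so in any comparison with 2-week animals treatment and cohort cannot be told apart. Separated animals were also sampled 4 weeks later after the start of pairing than 2-week animals. Between those groups, that time and the separation cannot be told apart either. Age, strain and genotype are not stated in the labels. Read totals recovered for the 42 libraries ran from 20067514 to 37737711, with overlapping ranges in 2-week and separated libraries (medians 27595735 and 27367087.5). A total of 14151 genes had a mean normalized count of at least 10, and both genes were among them.

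Both genes were scarce and uneven in 2-week animals and higher in most separated animals of each sex. In 2-week females ENSMOCG00000019682 had normalized counts of 20.2 at the lowest (pair 12), 132 at the median and 487 at the highest (pair 10). In separated females the lowest, median and highest were 237 (pair 26), 434 and 1331 (pair 17). The ranges overlapped through 1 of 9 2-week females, which lay above the lowest separated female, and 5 of 12 separated females exceeded every 2-week female. In males ENSMOCG00000019682 ran from 34.3 (pair 8) over a median of 136 to 496 (pair 9) after 2 weeks, and from 172 (pair 19) over 492 to 1014 (pair 25) after separation. Here 4 of 9 2-week males lay within the separated range, and 6 of 12 separated males exceeded all 2-week males. The means were 158 ± 134 (SD, n = 9) and 565 ± 339 (SD, n = 12) in females, a ratio of 3.58, and 209 ± 169 (SD, n = 9) and 504 ± 218 (SD, n = 12) in males, a ratio of 2.41.

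ENSMOCG00000003694 was lower in level throughout and spread more widely after separation. Its counts in 2-week females were 5.31 at the lowest (pair 12), 24.8 at the median and 101 at the highest (pair 9), and in separated females 24.7 (pair 21), 105 and 541 (pair 17). In males they were 14.7 (pair 12), 41.7 and 103 (pair 9) after 2 weeks, and 36.6 (pair 19), 95.3 and 386 (pair 25) after separation. In each sex 5 of 9 2-week animals lay above the lowest separated animal, and 6 of 12 separated animals exceeded every 2-week animal. The means were 38.8 ± 32.8 (SD, n = 9) and 173 ± 152 (SD, n = 12) in females, a ratio of 4.46, and 43.2 ± 27.3 (SD, n = 9) and 128 ± 96.4 (SD, n = 12) in males, a ratio of 2.97. Leaving out 1 library at a time moved the 4 ratios by at most 1.35 times. The highest separated female, pair 17, was the highest for both genes, and so was the male of pair 25 among separated males.

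**Figure D1:**
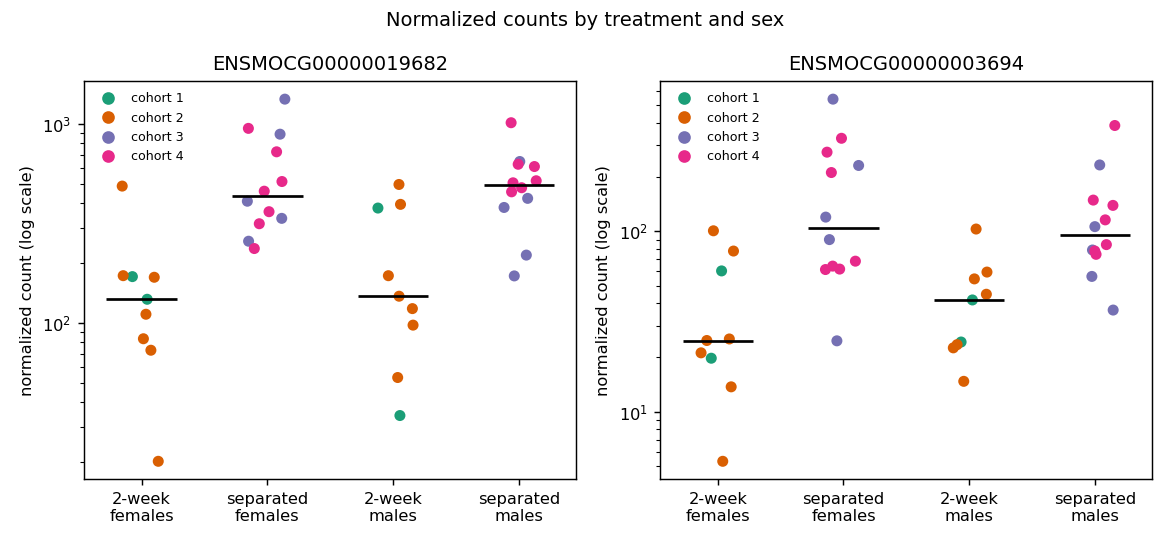
Normalized counts of both genes (log scale) in each library, by treatment and sex, with points coloured by cohort and a bar at each group's median. Separated animals sit higher, yet 2-week animals overlap them in every panel, for example the 2-week female at 487 for ENSMOCG00000019682.

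In the limma fit to all genes, log2(normalized count + 1) was higher in separated animals by 1.82 ± 0.30 (SE) for ENSMOCG00000019682 and by 1.79 ± 0.33 (SE) for ENSMOCG00000003694, with the sexes averaged. That fit called 465 of 14151 genes (3.29%) at an adjusted p under 0.05, 199 of them higher (1.41%). With the pair as a block, since mates are not independent, the SE was 0.40 for each gene and the fit called 8 genes, 2 of them higher. Since this contrast chose both genes, their own place among the calls of either fit is not given. The same difference on log2(TPM + 0.5) was 1.31 and 0.86, a scale that understates changes of low genes.

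Males and females did not differ past the threshold in either gene. Among 2-week animals the male minus female difference on the log2 scale was 0.34 ± 0.45 (SE) for ENSMOCG00000019682 and 0.38 ± 0.50 (SE) for ENSMOCG00000003694 (limma, adjusted p = 1.00 for each), in a fit that called 3 of 14151 genes (0.0212%). Among separated animals it was -0.09 ± 0.39 (SE) and -0.21 ± 0.43 (SE), again with 3 genes called (0.0212%) and neither of these among them. The treatment by sex interaction was -0.43 ± 0.60 (SE) and -0.60 ± 0.66 (SE), with adjusted p = 1.00 for both in limma and 1 gene called in all (0.00707%). The standard errors were as large as the differences or larger, so these data bound a sex difference only loosely.

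The 2 cohorts within each treatment also gave no call. Cohort 2 minus cohort 1 among 2-week animals was 0.03 ± 0.68 (SE) for ENSMOCG00000019682 and -0.07 ± 0.60 (SE) for ENSMOCG00000003694. Cohort 4 minus cohort 3 among separated animals was 0.30 ± 0.28 (SE) and 0.23 ± 0.44 (SE). Neither limma nor edgeR called any gene in these fits (0% of 14151), while 1577 (11.1%) and 398 (2.81%) genes had an unadjusted limma p under 0.05. With 2 pairs in cohort 1 and SEs of up to 0.68, these data bound a cohort difference only loosely.

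The spread among animals of 1 group was large for both genes. The coefficient of variation of ENSMOCG00000019682 was 85.0% in 2-week females, 80.7% in 2-week males, 59.9% in separated females and 43.2% in separated males. That of ENSMOCG00000003694 was 84.6%, 63.1%, 87.7% and 75.2% in the same order. Counting error alone would give on average 4.80% to 10.1% for the first gene and 10.2% to 21.2% for the second, so counting accounted for a small share of the spread. Within 2-week females the highest library exceeded the lowest 24.1-fold for ENSMOCG00000019682 (19 to 526 reads) and 18.96-fold for ENSMOCG00000003694 (5 to 116 reads). On the log2 scale the within-group SD was 0.998 and 1.10, against a median of 0.392 over all 14151 genes, and 10.5% and 7.86% of genes had a larger one. ENSMOCG00000019682 had its larger SDs after 2 weeks (1.22 in females and 1.31 in males, against 0.795 and 0.686 after separation). For ENSMOCG00000003694 the larger SDs were those of females (1.26 and 1.28, against 0.850 and 0.902 in males). These differences in spread were not tested.

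Animals high for one gene tended to be high for the other in all 4 groups. The correlation of their log2 counts was r = 0.811 in 2-week females (n = 9, exact permutation test, adjusted p = 0.0122 over 4 groups) and r = 0.756 in 2-week males (n = 9, exact permutation test, adjusted p = 0.0200). In separated animals it was r = 0.818 in females and r = 0.833 in males (n = 12 each, permutation test, adjusted p = 0.00270 for each). Spearman's rho was 0.733, 0.767, 0.741 and 0.825 in the same order, with adjusted permutation p of 0.0311, 0.0285, 0.0156 and 0.00616. Without the 2 animals farthest from the median of ENSMOCG00000019682, r was 0.513, 0.678, 0.685 and 0.885, so in 2-week females the relation leaned on those animals. On counts without a log, r in 2-week females was 0.607 and missed the threshold (n = 9, exact permutation test, adjusted p = 0.0845). Within the 7 animals of cohort 2 it was 0.877 and 0.825 in females and males, and within the 7 of cohort 4 it was 0.792 and 0.976. The other cohorts held 2 and 5 pairs, too few for a value.

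The read total of the library and the first principal component of all genes were then taken out by regression, an alternative chosen after seeing the data. Without the read total r was 0.868, 0.751, 0.806 and 0.843 in 2-week females, 2-week males, separated females and separated males. Without the first principal component it was 0.800, 0.711, 0.606 and 0.824, and every one of these 8 values kept its adjusted permutation p under 0.05.

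**Figure D2:**
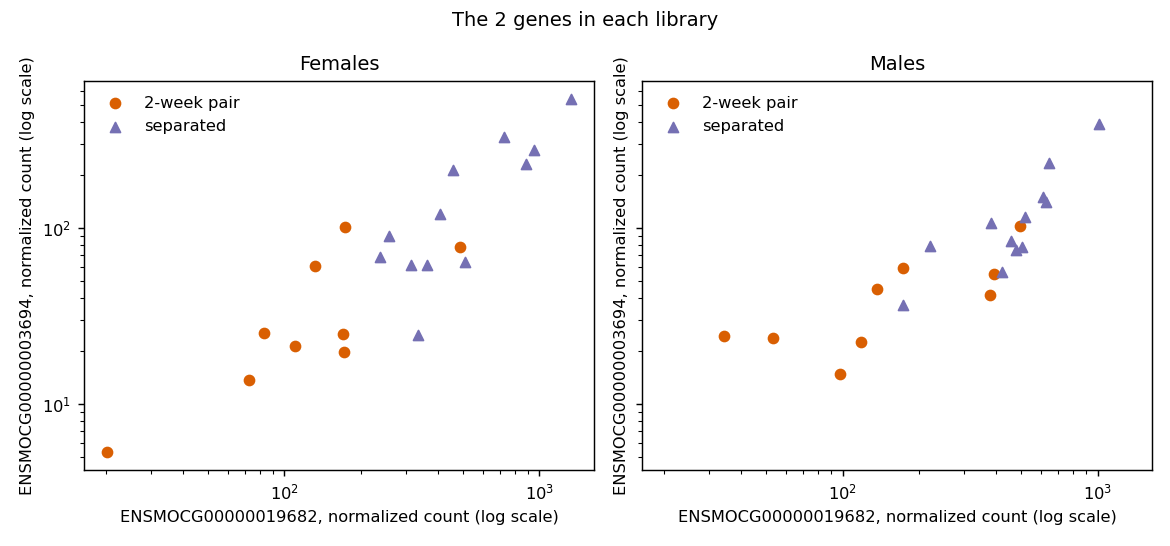
Normalized count of ENSMOCG00000003694 against that of ENSMOCG00000019682 (both log scales), 1 point per library, by sex and treatment. The points rise together in each of the 4 groups, with r between 0.756 and 0.833.

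The genes did not hold 1 fixed ratio. The read count of ENSMOCG00000019682 divided by that of ENSMOCG00000003694 had medians of 5.21 in 2-week females (1.72 to 8.63) and 4.82 in 2-week males (1.41 to 9.07). In separated females the median was 3.46 (2.17 to 13.6), and in separated males 4.49 (2.62 to 7.51). The ranges of all 4 groups overlapped, and the highest ratio was that of the separated female of pair 21, which had the lowest count of ENSMOCG00000003694 among separated females.

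Mates had shared housing, the separated ones until 4 weeks before sampling. The labels name each pair, so partners could be set against each other. The r between partners was taken on log2 counts after subtracting the mean of each cohort and sex. For its p, males were reassigned to females within cohorts. Over the 9 2-week pairs, r between female and male was -0.149 for ENSMOCG00000019682 (exact permutation p = 0.688, adjusted 0.838 over 4 tests, rho = -0.117, exact permutation p = 0.741). For ENSMOCG00000003694 it was 0.559 (exact permutation p = 0.159, adjusted 0.318, rho = 0.450, exact permutation p = 0.274), and -0.249 without the 2 pairs farthest from the median. Partners of 2-week pairs differed by a median of 2.87-fold in the first gene, at most 9.15-fold in pair 10, and by 1.77-fold, at most 3.97-fold, in the second.

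Over the 12 separated pairs, ENSMOCG00000019682 gave r = -0.543 (permutation p = 0.130, adjusted 0.318) and rho = -0.685 (permutation p = 0.0479, adjusted 0.192). Pairs 17 and 19 of cohort 3 had the female far above the male, and within the 7 pairs of cohort 4 r was 0.142, so the negative pooled value did not hold there. ENSMOCG00000003694 gave r = 0.0692 (permutation p = 0.838, adjusted 0.838) and rho = 0.147 (permutation p = 0.671). No partner correlation passed the threshold in either treatment. For comparison, the median r between partners over all genes was 0.415 in 2-week pairs and 0.469 in separated pairs. For ENSMOCG00000019682, 84.5% of genes in 2-week pairs and 99.2% in separated pairs had a larger r, and for ENSMOCG00000003694 these shares were 38.1% and 79.7%. The male was the higher partner for ENSMOCG00000019682 in 7 of 9 2-week pairs and 8 of 12 separated pairs, and for ENSMOCG00000003694 in 7 of 9 and 7 of 12.

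**Figure D3:**
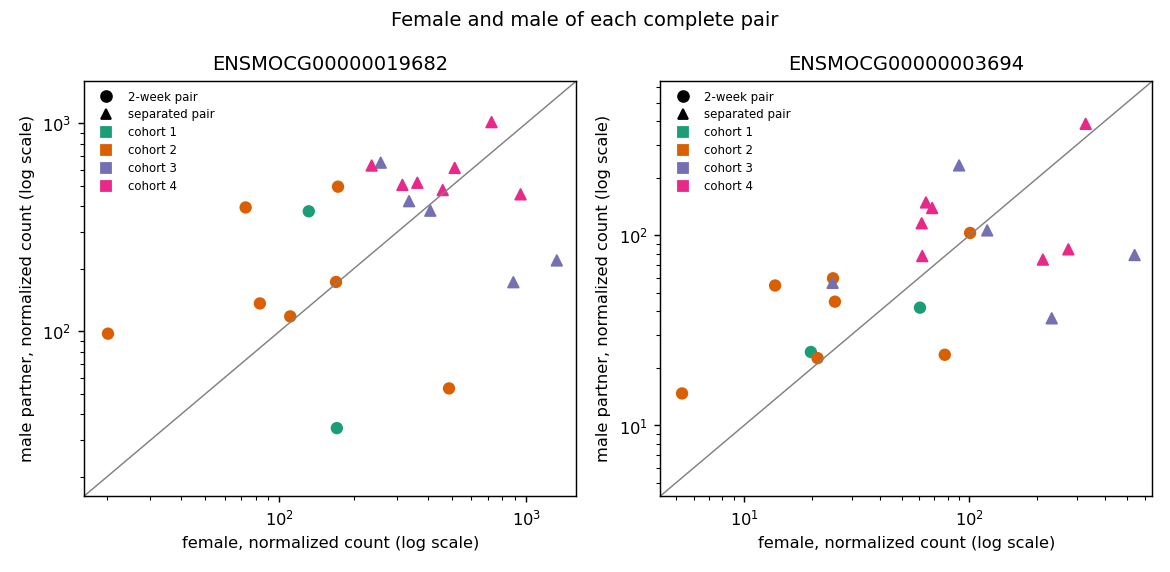
Normalized count of the male against that of his female partner (both log scales) for the 21 complete pairs, with shape for treatment, colour for cohort and a line of equality. The points scatter widely about the line, as with 2-week pair 10, whose female stood at 487 for ENSMOCG00000019682 and her mate 9.15-fold lower.

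The 6-week pairs had stayed together for as long as the whole course of the separated animals, and they spread over the range of both other groups. The TPM of ENSMOCG00000019682 was 11.4 in the female and 12.2 in the male of pair 18, 3.27 and 7.36 in pair 27, and 0.938 and 0.519 in pair 22. The TPM of ENSMOCG00000003694 was 4.59 and 5.66 in pair 18, 0.590 and 3.30 in pair 27, and 0.215 and 0.173 in pair 22. Both animals of pair 18 were thus high for both genes and both animals of pair 22 low, a description of 3 pairs. Pairs 18 and 22 belonged to cohort 3 and pair 27 to cohort 4.

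ENSMOCG00000019682 averaged 5.22 ± 5.52 TPM in 6-week females (SD, n = 3), 4.82 ± 3.84 in separated females (SD, n = 12) and 1.22 ± 1.18 in 2-week females (SD, n = 10). In males it averaged 6.70 ± 5.87 (SD, n = 3), 3.62 ± 1.59 (SD, n = 13) and 1.502 ± 1.45 (SD, n = 10). ENSMOCG00000003694 averaged 1.80 ± 2.43, 1.53 ± 1.61 and 0.308 ± 0.310 TPM in the same groups of females, and 3.04 ± 2.75, 0.921 ± 0.646 and 0.316 ± 0.278 TPM in males. Every 6-week mean was above the separated mean, with an SD near the mean itself or above it, and on the log2 scale the female differences from separated animals were -0.11 and -0.02.

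Between 6-week and separated animals of the same cohorts, limma on log2(TPM + 0.5) gave 0.16 ± 0.43 (SE) for ENSMOCG00000019682 and 0.48 ± 0.44 (SE) for ENSMOCG00000003694 (adjusted p = 1.00 for each). No gene was called (0% of 13110), and 107 had an unadjusted p under 0.05 in limma; without the filter on low TPM, limma called 2. Exact permutation tests in each sex, within cohort, gave adjusted p of 0.851 and 0.595 for ENSMOCG00000019682 in females and males, and 0.851 and 0.121 for ENSMOCG00000003694. In males the 6-week mean of ENSMOCG00000003694 was higher by 0.93 log2 units (exact permutation p = 0.0759). Without pair 22, which held the lowest 6-week values of both genes, males of the other 6-week pairs exceeded separated males. The differences were 1.39 and 1.88 log2 units in the first and the second gene (exact permutation test, adjusted p = 0.0357 for each). These calls appeared only with pair 22 left out, and their unadjusted p was the smallest that the few remaining splits allow. In males the difference of ENSMOCG00000019682 changed sign without pair 18, from 0.29 to -0.44 log2 units. The separated animals also served in choosing both genes, as the higher group, so these p-values are not free of that choice.

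Against 2-week animals the 6-week animals were higher in both genes and sexes, short of the threshold. The 2-week animals also served in choosing both genes, as the lower group. A higher value in another group is therefore favoured by the choice, and the p-values here are not free of it. The differences were 1.46 and 1.51 log2 units for ENSMOCG00000019682 in females and males (exact permutation p = 0.0524 and 0.0734), and 1.06 and 1.68 for ENSMOCG00000003694 (exact permutation p = 0.0734 and 0.0280). All 4 had an adjusted p of 0.121 in the exact permutation test over 8 comparisons. The limma difference for ENSMOCG00000019682 was 1.49 ± 0.47 (SE, adjusted p = 1.00), with no gene called (0% of 13141) and 242 at an unadjusted p under 0.05. ENSMOCG00000003694 fell below the minimum mean TPM of 1 in that fit. Without the filter limma called 3 genes and gave 1.37 ± 0.35 (SE) for ENSMOCG00000003694 (adjusted p = 0.533). Without pair 22, 3 of the 4 differences passed, at 2.20 for ENSMOCG00000019682 in females (exact permutation test, adjusted p = 0.0485), 2.61 in males and 2.63 for ENSMOCG00000003694 in males (exact permutation test, adjusted p = 0.0357 for both). These calls appeared only without pair 22, which held the lowest 6-week values of both genes. Without pair 18 the differences for ENSMOCG00000019682 fell to 0.67 in females and 0.79 in males. Those for ENSMOCG00000003694 fell to 0.21 and 1.03 (exact permutation test, adjusted p from 0.571 to 0.682 over the 4). Without pair 27 the adjusted p of the same test ran from 0.323 to 0.515. The 6-week and 2-week animals also differed in cohort, which cannot be told apart from the time of pairing.

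By median TPM, ENSMOCG00000019682 ordered from 2-week males (0.941) and 2-week females (1.03) through 6-week females (3.27), separated females (3.71) and separated males (3.81) to 6-week males (7.36). ENSMOCG00000003694 ordered from 2-week females (0.176) and males (0.261) through 6-week females (0.590), separated males (0.768) and separated females (0.794) to 6-week males (3.30). Neighbours in either order overlapped in range.

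**Figure D4:**
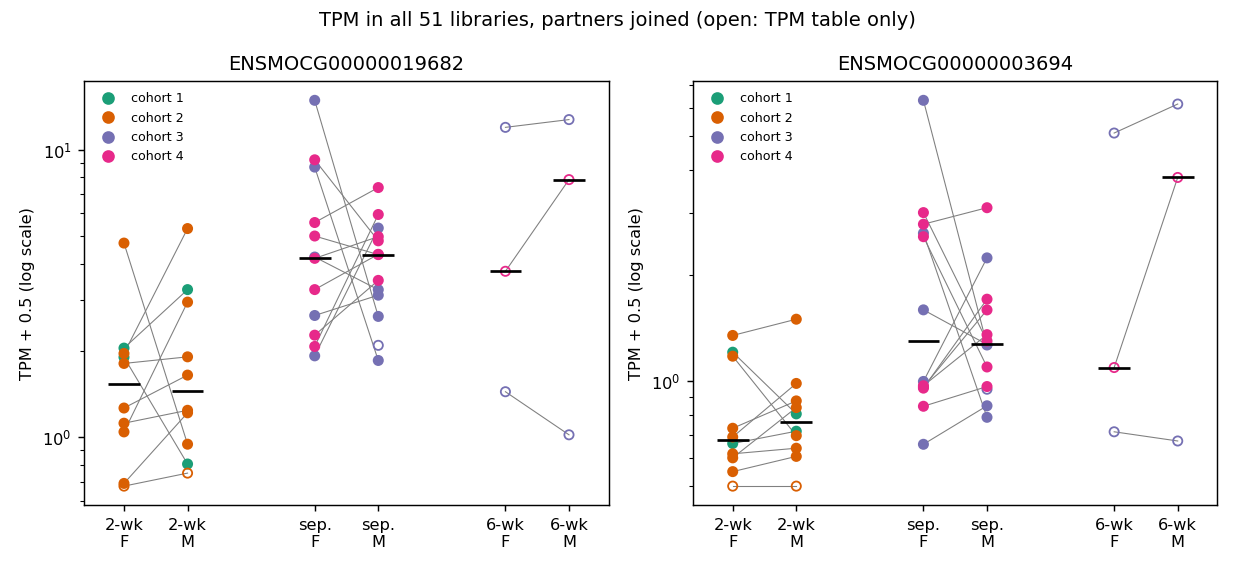
TPM + 0.5 of both genes (log scale) in all 51 libraries by treatment and sex, with partners of each complete pair joined by a line. Bars are medians, colour is cohort, open points are libraries with TPM only, and values listed at 0 are drawn at 0.5. Before 0.5 is added, the 6-week pairs span from 0.519 to 12.2 TPM for ENSMOCG00000019682. Among them both animals of pair 18 are at the top and both of pair 22 at the bottom.

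Reads per TPM is proportional to the length the authors used for a gene times a factor of the library. It ran from 99.9 to 151.4 for ENSMOCG00000019682 and from 100.02 to 151.6 for ENSMOCG00000003694 over the 42 libraries. The median gene of a library, taken over genes with at least 100 reads in it, stood at 39.3 to 59.0. In all 42 libraries ENSMOCG00000003694 exceeded ENSMOCG00000019682 by 0.131% to 0.132%, so both were scaled by nearly the same length. That length was 2.56 and 2.57 times that of the library's median gene, and 8.36% and 8.35% of the 8841 genes with at least 100 reads in every library had a longer one. The ratio to the library median changed little between libraries (SD of 0.0211 log2 units for both, range 2.47 to 2.63), and 91.5% of genes varied more. In separated females minus 2-week females its difference was -0.648% and in separated minus 2-week males -0.425%, for both genes (exact permutation p = 0.373 and 0.486, adjusted 0.486 for both). With lengths this close, the ratio of both genes' levels is nearly the same on the count scale as on TPM.

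Some library measures ranked with ENSMOCG00000003694, past the threshold by Spearman's rho but not by Pearson's r. Over pair means of log2 counts, its correlation with the read total was r = 0.795 in 2-week pairs (n = 9, exact permutation test, adjusted p = 0.0511 over 12 tests) and 0.679 in separated pairs (n = 12, permutation test, adjusted p = 0.0511). Spearman's rho was 0.900 and 0.797, with an adjusted permutation p of 0.0123 for each. Without the 2 farthest pairs r was 0.731 and 0.636, and within cohorts 2 and 4 it was 0.872 and 0.543. The first principal component of log2 counts (33.5% of their variance) gave r = 0.781 (exact permutation test, adjusted p = 0.0511) and rho = 0.883 (exact permutation test, adjusted p = 0.0123) in the 9 2-week pairs, and r = 0.433 (permutation test, adjusted p = 0.288) in separated pairs. For ENSMOCG00000019682 no measure passed: with the read total r was 0.682 (exact permutation test, adjusted p = 0.127) in 2-week and 0.485 (permutation test, adjusted p = 0.219) in separated pairs. The share of counts taken by the 11 most abundant IDs passed for neither gene. Normalized counts are already divided by a size factor, and the part of depth in the level of ENSMOCG00000003694 was not tested.

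To see which genes varied with these among animals of 1 treatment, log2 counts centred within sex were correlated over the 18 2-week and the 24 separated libraries. The libraries of a treatment share cohorts, partners and sequencing depth, so all r below are descriptions. Among 14149 other genes, 11 were closer to ENSMOCG00000019682 than ENSMOCG00000003694 was (r = 0.767) in 2-week libraries, and 4 (r = 0.820) in separated libraries. Seen from ENSMOCG00000003694, 55 and 16 genes were closer than its companion. More genes ran with ENSMOCG00000003694 after 2 weeks, where 461 had r above 0.7 and 327 below -0.7, against 55 and 82 for ENSMOCG00000019682. In separated libraries the counts above 0.7 were 85 and 33, and those below -0.7 were 77 and 22. With 18 and 24 libraries, a fixed r is not the same bar in both treatments. In 2-week pairs r with the first principal component was 0.781 for ENSMOCG00000003694 and 0.594 for ENSMOCG00000019682. The part of that component in these counts was not tested.

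The leading genes of each treatment are given with their r in the other, which is expected to be lower since they were picked for a high one. In 2-week libraries ENSMOCG00000004124 (r = 0.895) and ENSMOCG00000018973 (r = 0.870) were closest to ENSMOCG00000019682, and in separated libraries their r was 0.597 and -0.195. In separated libraries ENSMOCG00000015386 (r = 0.892) and ENSMOCG00000014414 (r = 0.856) were closest, with 0.775 and 0.348 after 2 weeks. ENSMOCG00000003694 was closest to ENSMOCG00000020782 (r = 0.878) and ENSMOCG00000014624 (r = 0.856) after 2 weeks, which had 0.254 and 0.390 after separation. It was closest to ENSMOCG00000002631 (r = 0.889) and ENSMOCG00000018512 (r = 0.871) after separation, which had 0.741 and 0.422 after 2 weeks.

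The lowest r with ENSMOCG00000019682 belonged to ENSMOCG00000019872 in 2-week libraries (-0.860, and -0.232 after separation) and to ENSMOCG00000008876 in separated libraries (-0.827, and -0.527 after 2 weeks). With ENSMOCG00000003694 the lowest were ENSMOCG00000002142 in 2-week libraries (-0.871, and -0.349 after separation) and ENSMOCG00000001425 in separated libraries (-0.870, and -0.440 after 2 weeks). All 4 were thus negative in both treatments.

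ENSMOCG00000015386 stayed near both genes in both treatments, its smallest r of the 4 being 0.763, ahead of ENSMOCG00000018599 with 0.745. The mean count of ENSMOCG00000015386 was 399 in 2-week and 685 in separated libraries. Its log2 difference was 0.82 ± 0.19 (SE, limma adjusted p = 0.00887), in a fit that called 3.29% of genes. Blocking on the pair raised its SE to 0.23, and it was no longer called (limma, adjusted p = 0.123). ENSMOCG00000018599 differed by 0.49 ± 0.17 (SE, limma adjusted p = 0.0979), short of the threshold. Both IDs were picked for likeness to genes chosen on this same difference, in the same libraries, so these values are descriptions.

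Each list of the 50 genes with the highest r in 1 treatment was then read in the other, where it had not been chosen. The 50 of ENSMOCG00000019682 from separated libraries had a median r of 0.549 in 2-week libraries, 47 of them positive and 28 above 0.5, where all genes had a median of 0.02, 51.4% positive and 7.17% above 0.5. Its 50 from 2-week libraries had a median r of 0.238 in separated libraries, with 41 positive and 12 above 0.5, against 2.18% of all genes above 0.5. The 50 of ENSMOCG00000003694 from separated libraries had a median r of 0.491 in 2-week libraries, with 49 positive and 24 above 0.5, where 22.9% of all genes passed 0.5. Its 50 from 2-week libraries had a median r of 0.391 in separated libraries, with 48 positive and 16 above 0.5, against 5.58% of all genes. With the first principal component taken out, these medians were 0.438, 0.256, 0.308 and 0.270 in the order given.

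The lists themselves shared across treatments 6 of 50 for ENSMOCG00000019682 and 3 of 50 for ENSMOCG00000003694. Within a treatment the lists of both genes shared 5 of 50 after 2 weeks and 27 of 50 after separation. Across all genes, the r with ENSMOCG00000019682 in one treatment correlated at 0.435 with that in the other, and for ENSMOCG00000003694 at 0.672. Genes are not independent replicates, so these values only describe the libraries.

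Most genes of the lists chosen in separated libraries had higher means in separated than in 2-week animals. Of the 50 of ENSMOCG00000019682, 48 had a positive log2 difference (median 0.44) and 23 were called higher by limma, where 1.41% of all genes were. Of the 50 of ENSMOCG00000003694, 40 were positive (median 0.36), 16 were called higher and 1 lower. The lists chosen in 2-week libraries had medians of 0.12 and -0.07, with 5 and 0 called higher in limma. Over all genes 49.4% were positive. With the pair as a block, limma called 8 of 14151 genes in all, and 0 of any of these 4 lists of 50. The separated libraries served both for the lists and for the difference, and the lists were picked for likeness to genes chosen on that difference.

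**Figure D5:**
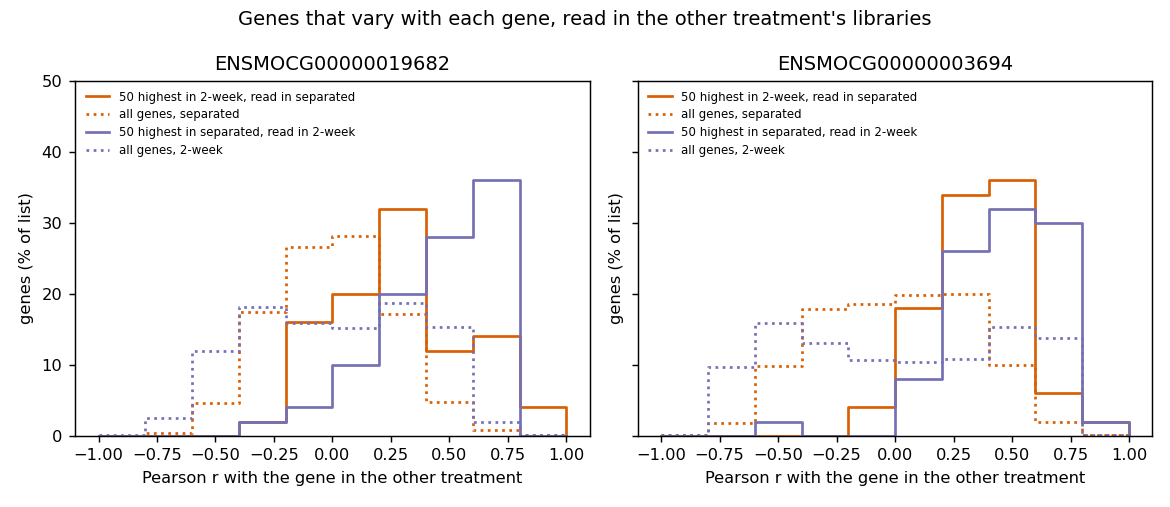
Share of genes by r with each member gene in the treatment that did not choose the list, for the 50 listed genes and for all genes. The listed genes lie to the right of all genes in every panel, least so for ENSMOCG00000019682 read in separated libraries (median 0.238).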

How the data were processed

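Normalized counts were deposited for 42 libraries. DESeq2 and DESeq appear in the submitters' processing notes, with no version. In this deposited signal 100.0% of values were whole multiples of 1 step per library, within 0.01 of a read, so reads were recovered by division. TPM values were deposited by the authors for 51 libraries, and no read totals were recovered for the 9 libraries held in that table alone. The aligner, counter, build and annotation release were not given in the sources used here. Of 23038 IDs, 0 matched the RefSeq table (26397 genes, MicOch1.0). Labels place the 2-week female of pair 15, not that of pair 9, among the normalized counts, but the columns hold pair 9, which was used. No 2 libraries were identical. The labels give each animal its own library, so replicates are animals.

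Both genes, and the lists and tests, were chosen with earlier results of these data known. limma 3.58.1 (R 4.3.3) with trended, robust moderation was fitted to log2(normalized count + 1) for treatment by sex groups, over genes with a mean count of at least 10. TPM fits used log2(TPM + 0.5) and a minimum mean TPM of 1, with sex and, against separated animals, cohort as terms. p-values were adjusted by Benjamini-Hochberg over all genes tested, with a threshold of 0.05. edgeR 4.0.16 on the recovered reads was an alternative and called 491 genes in separated minus 2-week animals. Permutation tests were two-sided, exact where a group or correlation held fewer than 10 animals or pairs, with 100000 resamples otherwise. The scripts were checked on simulated data. Besides both genes, the rule named for each gene and treatment the 2 IDs with the highest and the 1 with the lowest r, and the 2 IDs with the highest smallest r. The labels name the members of each pair, and partners deviated together (consensus correlation over genes 0.396). A fit with the pair as a block was therefore run as an alternative. Read totals limit precision in low genes, and intervals from reads would cover counting error only.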

Additional observations from a re-analysis of the deposited data

Results flagged for a closer look

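The female of 2-week pair 10 stood apart in ENSMOCG00000019682, with a normalized count of 487 and a TPM of 4.23. Its gap to the next 2-week female took up 0.673 of the group's range of counts and 0.663 of its range of TPM, past Dixon's 95% critical values for 9 and 10 animals. The male of 2-week pair 9 stood apart in ENSMOCG00000003694, with a normalized count of 103 and a TPM of 0.998. Its gap was 0.4933 of the range of counts, just past the critical value, and 0.517 of the range of TPM. Such a gap was looked for in the 2-week groups only, 8 times in all, and was found 4 times, which are 2 animals read on 2 scales. Chance gives about 1 in 20 for normally distributed values, and its rate for skewed counts such as these was not computed.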

How the results depend on the processing

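Of 171 tested values recomputed under an alternative, 151 kept their direction and their side of the threshold, 14 changed sign, 5 passed the threshold and 1 no longer did. A further 18 values were given without a test (separated minus 2-week differences of both genes and list medians of r), and these kept their direction. The cause was not tested for any of them. The differences between cohorts 2 and 1 changed sign on TPM for ENSMOCG00000019682 (-0.11), and for ENSMOCG00000003694 with edgeR (0.21) and after quantile normalization (0.0522). On counts without a log, r between the genes in 2-week females was 0.607 (permutation test, adjusted p = 0.0845). Partner r of ENSMOCG00000003694 without the first principal component was -0.176 in 2-week and -0.0322 in separated pairs. For 6-week minus separated animals the limma difference ranged from -0.18 to 0.55 for ENSMOCG00000019682 and from 0.14 to 0.78 for ENSMOCG00000003694 without 1 library; without the female of pair 18, the male of pair 18 or the male of pair 27 the first was -0.14, -0.18 or -0.02. The 6-week minus 2-week limma difference of ENSMOCG00000019682 ranged from 1.16 to 1.94. In single sexes, leaving out 1 6-week pair gave 6-week minus separated differences from -0.90 to 0.63 and from -0.44 to 1.39 for ENSMOCG00000019682 in females and males, and from -0.86 to 0.56 and from 0.28 to 1.88 for ENSMOCG00000003694. In males without pair 27 ENSMOCG00000019682 gave -0.09, and in females ENSMOCG00000003694 gave 0.25 without pair 27 and 0.0196 with a pseudocount of 1. Against 2-week animals these ranges were 0.67 to 2.20, 0.79 to 2.61, 0.21 to 1.63 and 1.03 to 2.63 in the same order.

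With the pair as a replicate block, the separated minus 2-week log2 differences of 1.82 and 1.79 are the same by construction. Their SEs went from 0.30 and 0.33 to 0.40 each. Since this contrast chose both genes, neither a p nor a call is given for them in either fit. The sex, cohort and 6-week comparisons gained or lost no call for either gene where the block could be fitted. The block cut the number of genes called in separated minus 2-week animals from 465 to 8, and TPM values gave 69. Depth limits ENSMOCG00000003694 most, with 5 reads in its lowest library.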

Other observations

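Of the 9 libraries with TPM only, 3 were not from 6-week pairs. The 2-week female and male of pair 15 had 0.175 and 0.250 TPM of ENSMOCG00000019682 and were both listed at 0 for ENSMOCG00000003694. The separated male of pair 23 had 1.59 and 0.445 TPM. In these 3 libraries 8385, 8224 and 8287 IDs were listed at 0, against 6747 to 7893 in the 42 libraries that also had normalized counts.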
